A study of Mus musculus with 12 samples.

Results

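Wild-type mouse macrophages were compared after ADP-heptose and after its vehicle. The members are 6 of the 12 libraries of the series, 3 labelled wild-type with ADP-Hep and 3 labelled wild-type with PBS, chosen by their labels alone, and every row of the count table that carried a mouse gene ID. That gave 56747 of 56749 rows, of which 12949 had enough counts in these 6 libraries to be tested. The cells were bone-marrow-derived macrophages (BMDMs), grown from the marrow of C57BL/6N mice for 7 days in L929-conditioned medium, which supplies the macrophage growth factor M-CSF. The ADP-Hep group received 100 µM ADP-Hep for 4 h and the PBS group received PBS for 4 h. The labels name no deleted allele or transgene in these groups. Both are cultures of 1 cell type outside the animal, seen at 1 dose and 1 time. The labels give no age or sex of the mice and do not tell whether each library is its own animal or culture. The p-values therefore speak of library-to-library spread, part or all of which may be technical. The other 6 libraries, from macrophages lacking Alpk1, were not used here.

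ADP-heptose is a sugar nucleotide that Gram-negative bacteria make on the way to the inner core of lipopolysaccharide. In the cytosol of mammalian cells it binds the kinase ALPK1, which phosphorylates the adaptor TIFA; TIFA then assembles with TRAF proteins and activates the kinases that release NF-kB. In macrophages NF-kB switches on cytokine and chemokine genes together with its own inhibitors, and secreted interferon can add a later group of antiviral genes. Activated macrophages are also known to change how they take up sugar and cystine, handle cholesterol and iron, and clear dying cells.

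Total counts ran from 16110654 to 31333973 per library. In a principal component analysis the treatments separated on component 1 (81.4% of variance), and component 2 (7.42%) set ADP-Hep replicate 3 (-26.6) apart from the other ADP-Hep libraries (17.9 and 8.58). One row, ENSMUSG00000119584, took between 14.97% and 28.35% of a library's counts and its share was lower in each ADP-Hep library (14.97% to 22.48%) than in each PBS library (23.80% to 28.35%). Without that row 3813 genes were higher and 3946 lower, close to the counts given below with it. The cells carried their labelled identity: the macrophage markers Csf1r, the M-CSF receptor, and Spi1, the lineage factor PU.1, stood at 1741, 1758 and 1715 CPM and 196, 204 and 191 CPM in the PBS libraries. Of the macrophage markers 5 were higher and 3 lower of 10. The sums of marker CPM given here cover only markers with enough counts to be tested. None of the 7 erythroid markers had enough. Neutrophil markers, of which 4 were higher and 2 lower of 9 tested, summed to 241 to 266 CPM in the PBS libraries and 225 to 237 CPM in the ADP-Hep libraries, with Ly6g, a defining one, at 6 and 8 counts over the groups. Markers of haematopoietic progenitors summed to 18.5 to 19.5 CPM with PBS and 4.68 to 4.92 CPM with ADP-Hep. Of the 4 tested, 3 were lower and 1 was higher. Most of the fall in this sum came from 1 marker, Sox4. Sox4 was at 14.5, 13.8 and 13.8 CPM in the PBS libraries and 1.42, 1.13 and 1.04 CPM in the ADP-Hep libraries. Endothelial markers summed to 108 to 125 CPM with PBS and 70.3 to 79.6 CPM with ADP-Hep. B and plasma cell markers summed to 35.9 to 39.9 CPM with PBS and 16.1 to 19.6 CPM with ADP-Hep. Megakaryocyte markers summed to 189.6 to 207 CPM with PBS and 240.3 to 244 CPM with ADP-Hep. For T and NK cells, dendritic cells, mast cells and basophils, and fibroblasts, only 1 marker each was tested, of 10, 7, 7 and 7 listed. These single markers reached at most 1.87 CPM in any library. Of 6 osteoclast markers 2 were tested, 1 higher and 1 lower, and their sum overlapped between the groups. The part of such cells in the results was not tested.

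Levels below are CPM, counts scaled to a library's TMM-adjusted total, and say nothing of a gene's length, so levels of different genes are not compared. Changes are log2 fold changes of ADP-Hep over PBS ± SE from edgeR's quasi-likelihood test, with an approximate SE taken as the size of the change over the root of the F statistic. A gene was called where its Benjamini-Hochberg adjusted p was under 0.05, and "rose", "fell", "higher" and "lower" refer to called genes.

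The response was broad and went both ways. Among 12949 tested genes, ADP-Hep raised 3874 (29.9%) and lowered 3896 (30.1%). By at least 2-fold, 952 (7.35%) were higher and 841 (6.49%) lower. The tail was longer upward, with 335 genes higher and 136 lower by at least 4-fold, and 71 higher and 6 lower by at least 16-fold. Many calls were small: 4307 of the 7770 called genes (55.4%) changed by less than 1.5-fold. The 3 ADP-Hep libraries lay wholly above the 3 PBS libraries for 4091 genes (31.6%) and wholly below them for 4242 (32.8%). The median change over all genes was -0.0042, with quartiles at -0.35 and 0.33. Against this background a gene list with about 30% of members called each way and a median near 0 is not set apart.

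**Figure D1:**
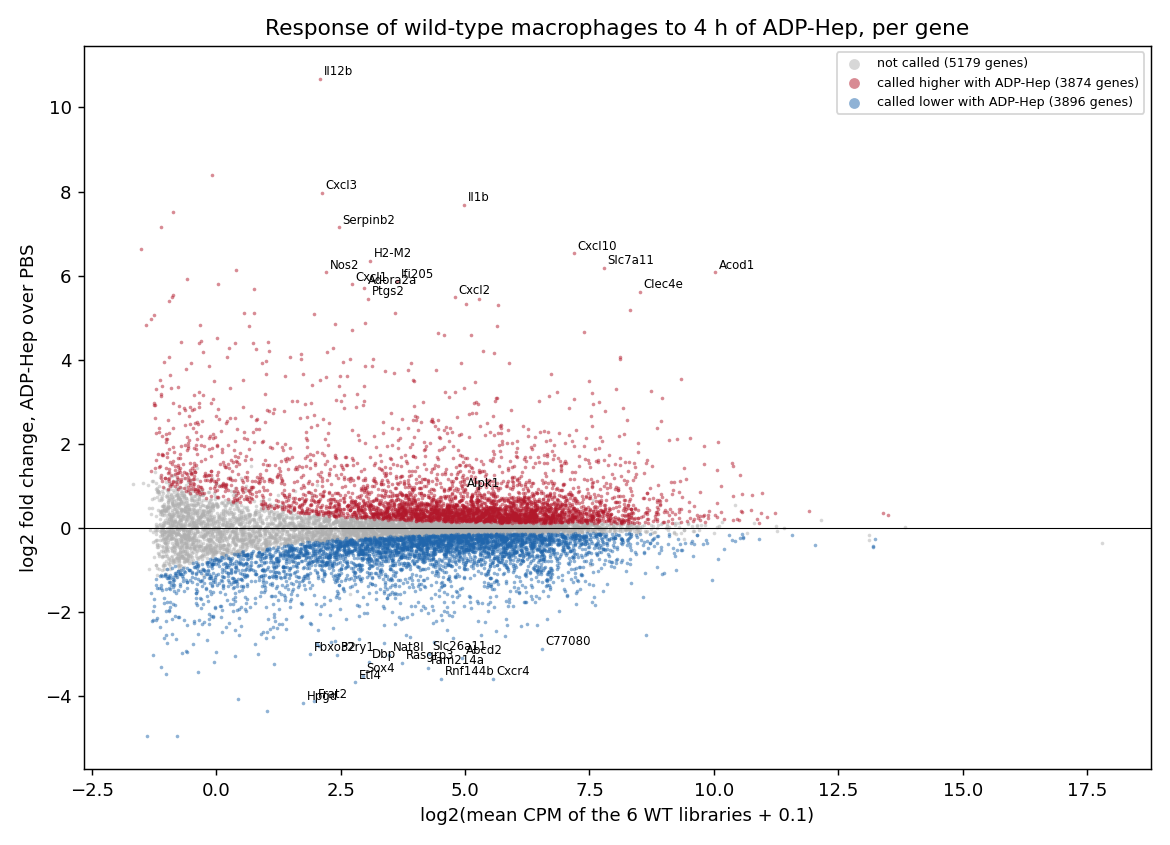
Each point is 1 of the 12949 tested genes, with the log2 of its mean CPM over the 6 wild-type libraries (plus 0.1) on the x axis and the log2 fold change of ADP-Hep over PBS on the y axis; red and blue mark called genes and grey the others. Alpk1 and the 15 largest increases and decreases chosen by the naming rule are labelled, from Il12b at the top to Hpgd at the bottom. The position of Il12b, with 0 counts in PBS, depends on the prior count of the fit.

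Alpk1, the sensor itself (ENSMUSG00000028028, chromosome 3, 127670310 to 127780527, minus strand, mm10, protein-coding), was present in every library, at 22.5, 24.1 and 19.5 CPM in the PBS libraries and 39.9, 41.1 and 39.2 CPM in the ADP-Hep libraries. The ADP-Hep libraries all lay above the PBS libraries (0.88 ± 0.07, adjusted p = 4.3e-09). Its substrate Tifa stood at 67.8, 70.8 and 78.9 CPM in the PBS libraries and 102, 103 and 97.9 CPM in the ADP-Hep libraries, again without overlap (0.48 ± 0.06, adjusted p = 1.2e-06). Tifab, which encodes a TIFA-related protein, moved the other way, at 58, 57.8 and 49.5 CPM in the PBS libraries and 28.8, 27.7 and 28.8 CPM in the ADP-Hep libraries (-0.95 ± 0.07, adjusted p = 4.9e-10). Of the 13 pathway members tested, 10 were higher, 2 were lower and 1 was not called. Traf2, a ubiquitin-ligase adaptor, rose by more than 2-fold (1.29 ± 0.07). Smaller increases were found in the IkB kinase subunits Chuk (0.75 ± 0.07), Ikbkb (0.36 ± 0.05) and Ikbkg (0.55 ± 0.06), the ubiquitin-conjugating enzyme Ube2n (0.57 ± 0.06), the kinase Map3k7, known as TAK1 (0.18 ± 0.05), its partner Tab2 (0.22 ± 0.05) and the ubiquitin ligase Traf6 (0.16 ± 0.06). The last of these lost its call without PBS replicate 1 or 2 or ADP-Hep replicate 1 or 2 (adjusted p = 0.117 to 0.149 in edgeR), and Map3k7 without PBS replicate 2 (adjusted p = 0.0572). The partner Tab1 fell (-0.53 ± 0.08), and Tab3 stood at 0.06 ± 0.07 and was not called.

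All 11 NF-kB subunits and IkB proteins tested were higher, with a median of 1.56. The sizes differed between members. The inhibitors Nfkbie and Nfkbia changed by 4.17 ± 0.09 and 2.99 ± 0.06, and Nfkbib by 1.5 ± 0.07. The precursors Nfkb2 (2.95 ± 0.07) and Nfkb1 (1.56 ± 0.05) and the non-canonical subunit Relb (2.08 ± 0.06) followed. The transactivating subunits Rela (0.84 ± 0.06) and Rel (0.76 ± 0.05) changed by less than 2-fold. Among the nuclear IkB proteins, Nfkbiz, needed for a late set of NF-kB targets, rose by 1.97 ± 0.07, Bcl3 by 1.36 ± 0.10 and Nfkbid by 0.71 ± 0.09. Nfkbie held 5.85, 5.23 and 4.18 CPM in the PBS libraries and 88.5, 92.5 and 88.7 CPM in the ADP-Hep libraries, so the lowest ADP-Hep library was above the highest PBS library by a wide margin.

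Brakes on signalling were not all raised. Of 12 MAP kinase feedback genes tested, 8 were higher, with a median of 1.89. The phosphatases Dusp1 (2.72 ± 0.09), Dusp16 (2.25 ± 0.08), Dusp2 (2.15 ± 0.16) and Dusp4 (2.00 ± 0.09) and the Raf inhibitor Spred1 (1.89 ± 0.06) rose, whereas Dusp7, which acts on ERK, fell (-1.37 ± 0.06, adjusted p = 1.4e-13). Dusp6, another ERK phosphatase, was not called (-0.02 ± 0.10). Among 20 regulators of ubiquitin signalling, 13 were higher, including Traf1 (5.44 ± 0.09), the A20 gene Tnfaip3 (2.30 ± 0.06), its binding partner Tnip3 (3.23 ± 0.06) and the ubiquitin ligase Birc3 (2.29 ± 0.05). Proteins that control cytokine mRNA stability gave 7 higher and 5 lower of 14. The list also holds stabilising factors, of which Elavl1, encoding HuR, rose (0.45 ± 0.05) and Arid5a was not called (0.21 ± 0.14) except without ADP-Hep replicate 1 (adjusted p = 0.0305 in edgeR). Among those that destroy mRNA, Zc3h12c (2.29 ± 0.06) and Zfp36, encoding tristetraprolin (1.13 ± 0.06), rose. The Zfp36 relative Zfp36l2 fell (-1.29 ± 0.05), from a mean of 203 CPM with PBS (SD 4.15) to 83 CPM with ADP-Hep (SD 0.761). Zc3h12d fell as well (-0.83 ± 0.06).

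The chemokines that draw neutrophils were among the genes that changed most. Cxcl1 (ENSMUSG00000029380, chromosome 5, 90891241 to 90893115, plus strand) was read at 0.0487, 0.213 and 0.351 CPM in the PBS libraries and 12.9, 12.2 and 13.4 CPM in the ADP-Hep libraries (5.79 ± 0.21, adjusted p = 2.2e-14). Cxcl2, next to it on the chromosome (ENSMUSG00000058427, chromosome 5, 90903871 to 90905938, plus strand), was at 1.27, 1.01 and 1.28 CPM in the PBS libraries and 51.9, 54.5 and 56.3 CPM in the ADP-Hep libraries (5.48 ± 0.10, adjusted p = 1.2e-18). Cxcl3 (ENSMUSG00000029379, chromosome 5, 90786103 to 90789600, plus strand) summed to 2 counts with PBS and 653 with ADP-Hep, a ratio of 293 with a 95% counting interval of 80.7 to 2421. These 3 neighbouring genes were thus close to silent in every PBS library and well above that in every ADP-Hep library. Such intervals and the bounds given below cover counting error only. Of 10 CXC chemokines tested, 9 were higher, 1 was lower and none was not called, with a median of 5.64. The member that was lower, Cxcl14, changed little (-0.19 ± 0.07) and was not called without PBS replicate 1, PBS replicate 2 or ADP-Hep replicate 1 (adjusted p = 0.107, 0.055 and 0.074 in edgeR). The interferon-induced Cxcl10 (ENSMUSG00000034855, chromosome 5, 92346638 to 92348889, minus strand) was at 3.85, 2.08 and 3.23 CPM in the PBS libraries and 257, 325 and 279.6 CPM in the ADP-Hep libraries (6.53 ± 0.15, adjusted p = 5.7e-11). Of 11 CC chemokines, 10 were higher, none was lower and 1 was not called, among them the monocyte attractant Ccl12 (5.10 ± 0.20), Ccl5 (4.70 ± 0.18), Ccl3 (2.29 ± 0.07), Ccl4 (2.25 ± 0.08) and Ccl2 (2.17 ± 0.10).

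The promoters of some named genes are printed here so that they can be compared letter by letter. Only named genes holding a match to a motif described below were eligible. That each printed promoter holds a match therefore follows from the choice. Sequences are from RefSeq on build GRCm38.p6, run 5′ to 3′ on the strand of the gene, and cover 250 bases before and 50 bases after the annotated start. Capitals mark matches to any of 3 motifs searched on both strands: the kappaB consensus, the interferon-response motif (GAAA, any 2 bases, GAAA), and TGANTCA, the AP-1 site. The windows are chr5:90890995-90891294 (plus strand) for Cxcl1, chr5:90903649-90903948 (plus strand) for Cxcl2 and chr5:90785851-90786150 (plus strand) for Cxcl3. They are chr12:55492598-55492897 (minus strand) for Nfkbia and chr19:46304487-46304786 (plus strand) for Nfkb2. Those of Cxcl10, Gbp2 and B2m are chr5:92348840-92349139 (minus strand), chr3:142620413-142620712 (plus strand) and chr2:122147437-122147736 (plus strand).
Cxcl1: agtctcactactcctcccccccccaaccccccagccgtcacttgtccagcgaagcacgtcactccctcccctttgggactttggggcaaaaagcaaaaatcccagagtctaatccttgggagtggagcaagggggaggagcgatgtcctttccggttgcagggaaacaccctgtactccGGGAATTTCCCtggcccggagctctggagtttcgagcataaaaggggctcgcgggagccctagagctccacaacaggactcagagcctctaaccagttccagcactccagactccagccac
Cxcl2: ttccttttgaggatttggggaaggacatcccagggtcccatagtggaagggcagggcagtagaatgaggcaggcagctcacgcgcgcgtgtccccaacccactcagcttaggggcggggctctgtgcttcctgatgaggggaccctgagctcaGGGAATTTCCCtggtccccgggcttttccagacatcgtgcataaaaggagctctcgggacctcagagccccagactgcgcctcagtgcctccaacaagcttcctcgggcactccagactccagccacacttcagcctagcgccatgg
Cxcl3: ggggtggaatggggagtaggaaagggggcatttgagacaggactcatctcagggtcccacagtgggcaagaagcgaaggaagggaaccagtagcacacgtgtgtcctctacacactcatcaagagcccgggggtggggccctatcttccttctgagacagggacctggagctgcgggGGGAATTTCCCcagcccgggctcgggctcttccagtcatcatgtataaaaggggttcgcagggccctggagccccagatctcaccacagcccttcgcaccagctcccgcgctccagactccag
Nfkbia: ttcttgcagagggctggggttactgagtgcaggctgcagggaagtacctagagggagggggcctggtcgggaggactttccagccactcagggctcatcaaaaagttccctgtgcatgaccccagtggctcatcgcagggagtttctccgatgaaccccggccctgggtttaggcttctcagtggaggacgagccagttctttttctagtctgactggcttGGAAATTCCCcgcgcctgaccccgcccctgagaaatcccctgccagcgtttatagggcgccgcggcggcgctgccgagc
Nfkb2: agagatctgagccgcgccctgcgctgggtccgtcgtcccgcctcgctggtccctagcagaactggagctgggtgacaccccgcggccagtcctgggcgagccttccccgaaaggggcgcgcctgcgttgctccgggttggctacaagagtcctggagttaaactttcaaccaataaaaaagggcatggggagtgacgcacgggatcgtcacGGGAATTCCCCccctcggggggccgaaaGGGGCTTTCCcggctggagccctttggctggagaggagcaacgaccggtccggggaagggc
Cxcl10: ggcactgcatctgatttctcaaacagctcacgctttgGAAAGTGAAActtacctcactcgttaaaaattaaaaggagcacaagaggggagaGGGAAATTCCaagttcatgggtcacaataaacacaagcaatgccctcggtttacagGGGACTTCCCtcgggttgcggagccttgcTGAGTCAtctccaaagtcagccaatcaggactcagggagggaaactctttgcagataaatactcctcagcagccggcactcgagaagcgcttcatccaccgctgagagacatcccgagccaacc
Gbp2: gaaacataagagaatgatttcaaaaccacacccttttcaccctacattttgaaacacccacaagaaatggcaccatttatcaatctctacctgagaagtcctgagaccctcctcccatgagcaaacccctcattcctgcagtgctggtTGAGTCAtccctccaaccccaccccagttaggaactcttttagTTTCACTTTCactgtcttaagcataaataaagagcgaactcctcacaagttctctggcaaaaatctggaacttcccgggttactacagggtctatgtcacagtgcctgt
B2m: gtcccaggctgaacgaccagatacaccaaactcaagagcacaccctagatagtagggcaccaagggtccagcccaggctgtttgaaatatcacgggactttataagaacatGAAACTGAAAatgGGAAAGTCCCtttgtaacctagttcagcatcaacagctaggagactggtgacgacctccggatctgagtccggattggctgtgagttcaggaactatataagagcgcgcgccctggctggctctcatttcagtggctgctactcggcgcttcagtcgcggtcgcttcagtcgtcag

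Cxcl1, Cxcl2 and Cxcl3 each held the same letters GGGAATTTCC, overlapping by all but 1 base with a second match GGAATTTCCC. These began 71, 97 and 73 bases upstream of the start. Nfkbia held GGAAATTCCC beginning 29 bases upstream. Nfkb2 held GGGAATTCCC and an overlapping match from 39 bases upstream, and a separate GGGGCTTTCC from 11 bases upstream. In Cxcl10 all 3 motifs were found: kappaB matches from 159 and 103 bases upstream, GAAAGTGAAA from 213 and TGAGTCA from 74. Gbp2, an interferon-induced GTPase gene, held TTTCACTTTC, the reverse strand of the interferon motif, 59 bases upstream and TGAGTCA 102 bases upstream. B2m, the light chain of MHC class I, whose change was small (0.32), held GAAACTGAAA from 139 bases and GGAAAGTCCC from 126 bases upstream. Other strongly raised genes, such as Il1b, Il12b, Acod1, Clec4e, Slc7a11 and Ptgs2, held no match to any of the 3 motifs.

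Among all 27025 promoters of the RefSeq table, 4.35% held a kappaB match, 3.49% an interferon-response match and 7.93% a TGANTCA match. For the 9517 tested genes with a promoter these shares were 5.01%, 3.29% and 5.01%. For the 233 genes higher by at least 4-fold they were 14.6%, 9.87% and 15%, and for the 585 genes lower by at least 2-fold 4.1%, 1.88% and 4.79%. By list, kappaB matches were found in 5 of 8 NF-kB and IkB promoters and 4 of 8 CXC chemokine promoters, the largest shares of any pathway list. Other lists with many raised genes held few: 1 of 7 CC chemokine promoters, 0 of 11 IL-1 family promoters and 0 of 11 MAP kinase feedback promoters. Interferon-response matches were found in 8 of 9 promoters of interferon-inducible GTPases and 16 of 25 of antiviral effectors. A match is a run of letters, not a measured binding site, and base composition of the sets was not compared. Of the 581 genes that the naming rule gives, 440 had a promoter in the table and 113 of those held at least 1 of the motifs. The rule favours genes with large changes or small p. The share of all tested genes holding any of the motifs was not counted, so this number has no background beside it.

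**Figure D2:**
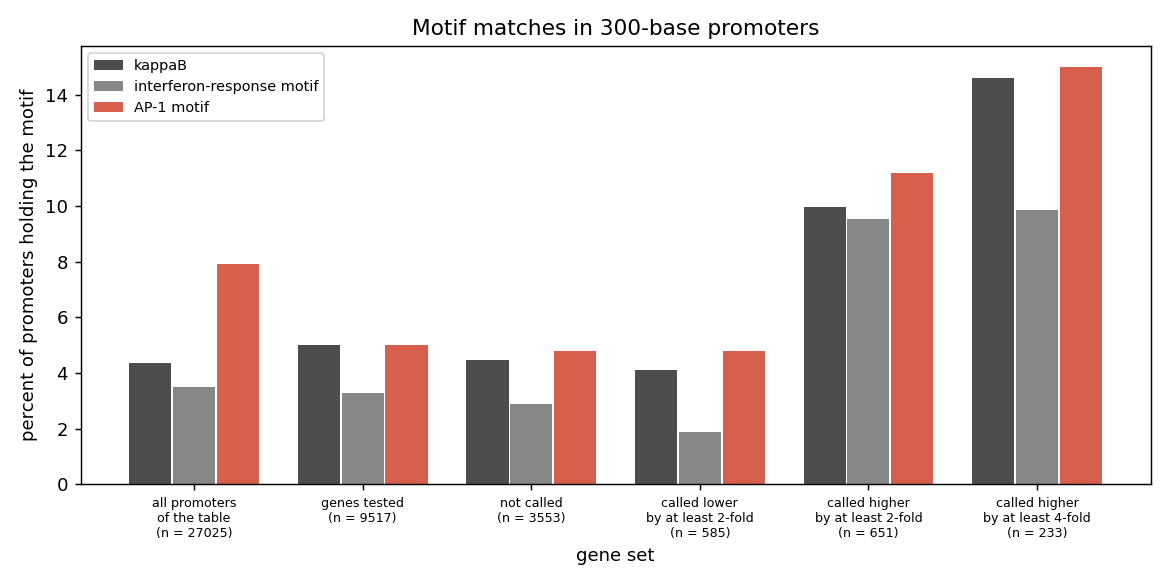
Bars give the percent of 300-base promoters in each gene set (x axis, with the number of promoters) that hold a match to the kappaB, interferon-response or AP-1 motif on either strand. The sets of genes higher after ADP-Hep stand at 9.52% to 15% for the 3 motifs and the set of lower genes at 1.88% to 4.79%.

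Several cytokine genes rose from low levels. Il1b, the pyrogenic cytokine (ENSMUSG00000027398, chromosome 2, 129364570 to 129371139, minus strand), was at 0.439, 0.213 and 0.256 CPM in the PBS libraries and 61.7, 65 and 60.5 CPM in the ADP-Hep libraries (7.69 ± 0.13, adjusted p = 4.7e-19). Il12b, whose product serves both IL-12 and IL-23 (ENSMUSG00000004296, chromosome 11, 44400063 to 44414033, plus strand), was at 0 counts in every PBS library and summed to 646 with ADP-Hep, which is at least 193-fold higher if the PBS group is set to its floor of 3 counts. Tnf was at 8.77, 6.14 and 6.9 CPM in the PBS libraries and 103, 107 and 119 CPM in the ADP-Hep libraries (3.91 ± 0.10, adjusted p = 4.2e-15). In each of these genes the ADP-Hep libraries lay far above the PBS libraries. Il6ra, the IL-6 receptor, fell without overlap, from 136, 131 and 130 CPM in the PBS libraries to 52.4, 54.6 and 56.4 CPM (-1.28 ± 0.05, adjusted p = 1.3e-13), and its signalling partner Il6st also fell (-0.66 ± 0.05). In the IL-6, IL-12 and IL-10 families 6 were higher, 6 were lower and 1 was not called of 13 tested. The IL-1 family gave 7 higher and 3 lower of 13. Its antagonist Il1rn rose (2.06 ± 0.06) and the inhibitory receptor Sigirr fell (-1.36 ± 0.21).

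Of 10 TNF superfamily ligands 5 were higher, 4 were lower and 1 was not called. Tnfsf4 (3.62 ± 0.21), Tnfsf9 (2.77 ± 0.20), Tnfsf10, which encodes TRAIL (3.02 ± 0.16), and Tnfsf15 (1.97 ± 0.16) rose. The B cell survival factors Tnfsf13b, known as BAFF, and Tnfsf13, known as APRIL, fell (-0.66 ± 0.11 and -1.12 ± 0.24), as did Tnfsf12, known as TWEAK (-0.97 ± 0.09), and Tnfsf8, the CD30 ligand (-1.54 ± 0.36). Of the receptors, 9 were higher and 3 lower of 16, with Cd40 (4.60 ± 0.10) and the death receptor Fas (2.57 ± 0.08) among those that rose and Tnfrsf26 among those that fell (-1.36 ± 0.11). Chemokine receptors gave 7 higher and 3 lower of 11. Cxcr4, the receptor for the marrow-retention chemokine CXCL12 (ENSMUSG00000045382, chromosome 1, 128588199 to 128592293, minus strand), was at 85.4, 86.4 and 89.7 CPM in the PBS libraries and 8.12, 5.77 and 8.28 CPM in the ADP-Hep libraries (-3.58 ± 0.09, adjusted p = 2.7e-15). Cxcr3, the receptor for CXCL10, fell (-2.76 ± 0.16) while Ccr3 (3.02 ± 0.12), the scavenging receptor Ccrl2 (2.28 ± 0.08) and Ccr1 (1.42 ± 0.09) rose. The receptor for M-CSF, Csf1r, changed little (0.20 ± 0.06), whereas its ligand Csf1 rose (1.66 ± 0.12).

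Genes of the interferon response were nearly all higher, although interferon itself was hardly read. Ifnb1, which encodes interferon-beta, summed to 1 count with PBS and 14 with ADP-Hep, a ratio of 12.5 with a 95% counting interval of 1.91 to 531, and was too low to be tested. Of 33 antiviral effectors tested, 30 were higher, 1 was lower and 2 were not called, with a median of 1.47. They included Ifit3b (3.68 ± 0.12), the RNA sensors Ddx58 (1.73 ± 0.07) and Ifih1 (1.33 ± 0.06) and the oligoadenylate synthetase family member Oasl2 (1.47 ± 0.06). Interferon-inducible GTPases gave 14 higher and 1 lower of 15. Gbp5, which promotes inflammasome assembly, was at 3.36, 3.04 and 2.14 CPM in the PBS libraries and 63, 75.9 and 59.9 CPM in the ADP-Hep libraries (4.59 ± 0.14, adjusted p = 8.1e-12), and Gbp2 (3.08 ± 0.08) and Igtp (1.92 ± 0.07) rose too. All 18 tested members of the PYHIN and PARP families were higher, led by Ifi205 (5.87 ± 0.18), Ifi211 (3.11 ± 0.09) and Parp14 (2.55 ± 0.06). Ifit3 and Ifit3b, and members of the Gbp and PYHIN families, are close copies, and how their shared reads were assigned is not given in the sources used here.

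The list of interferon regulatory factors gave 5 higher and 5 lower of 11. It also holds the corepressor-family genes Irf2bp1, Irf2bp2 and Irf2bpl, and of the factors themselves only Irf8 and Irf4 were lower. Irf7 (2.22 ± 0.09), Irf1 (1.53 ± 0.07), Irf9 (0.83 ± 0.06) and Irf5 (0.79 ± 0.06) rose and Irf2 rose slightly (0.17 ± 0.06), a call lost without PBS replicate 2, PBS replicate 3 or ADP-Hep replicate 2 (adjusted p = 0.0602, 0.105 and 0.0684 in edgeR). Irf3 was not called (0.04 ± 0.07). Irf8, a factor of the macrophage lineage, was at 139, 137 and 134 CPM in the PBS libraries and 63.3, 65.2 and 72 CPM in the ADP-Hep libraries, lower in every ADP-Hep library (-1.04 ± 0.06, adjusted p = 7.8e-12). Irf4 (-2.17 ± 0.44) and the corepressor-family genes Irf2bpl (-1.13 ± 0.07), Irf2bp2 (-0.35 ± 0.06) and Irf2bp1 (-0.18 ± 0.07) fell as well, the last of them not without PBS replicate 2 or 3 or ADP-Hep replicate 1 or 2 (adjusted p = 0.0758 to 0.205) nor with library totals in place of TMM (adjusted p = 0.158). Of 16 STAT and SOCS genes 6 were higher and 3 lower. The cytokine-signalling inhibitor Socs3 was at 3.02, 2.29 and 2.2 CPM in the PBS libraries and 89, 99.1 and 108 CPM in the ADP-Hep libraries (5.31 ± 0.11, adjusted p = 7.1e-17). Socs1 rose too (3.62 ± 0.17), as did Stat2 (1.25 ± 0.07) and the interferon-pathway brake Usp18 (2.43 ± 0.10). Socs6 moved the other way (-2.17 ± 0.07), Stat5b fell (-0.49 ± 0.06) and Stat3 was not called (-0.01 ± 0.06).

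Receptors for microbial products went both ways. The lipopolysaccharide co-receptor Cd14 was at 101, 102 and 103 CPM in the PBS libraries and 1126, 1179.6 and 1279 CPM in the ADP-Hep libraries (3.55 ± 0.06, adjusted p = 5.3e-19), and Tlr2, which senses bacterial lipopeptides, at 87.5, 90.0 and 87.1 CPM in the PBS libraries and 501, 514 and 547 CPM in the ADP-Hep libraries (2.56 ± 0.05, adjusted p = 9.6e-18); neither showed overlap. Of the receptors that sense RNA in endosomes, Tlr7 fell, at 227, 218 and 259.9 CPM in the PBS libraries and 130.2, 135 and 131 CPM in the ADP-Hep libraries (-0.83 ± 0.06, adjusted p = 8.5e-10), as did Tlr8 (-0.65 ± 0.07) and Tlr13 (-0.39 ± 0.05), whereas Tlr3 rose (0.73 ± 0.09). Over the whole list 10 were higher and 8 lower of 22. Tlr4, the lipopolysaccharide receptor, fell (-0.56 ± 0.08); it and Tlr3 are outside the naming rule and were chosen after their values were seen. NOD receptors and inflammasome genes gave 14 higher and 7 lower of 23. Nlrp3 (3.5 ± 0.06), the pyrin gene Mefv (3.51 ± 0.10), the muramyl dipeptide sensor Nod2 (2.52 ± 0.10) and Casp4 (2.39 ± 0.07) rose, and Nlrp1b (-1.41 ± 0.13) and the negative regulator Nlrc3 (-1.66 ± 0.08) fell. C-type lectins gave 9 higher and 3 lower of 13. Clec4e, the receptor Mincle for mycobacterial glycolipid, was at 14.4, 15.1 and 14.4 CPM in the PBS libraries and 715, 722 and 719 CPM in the ADP-Hep libraries (5.62 ± 0.06, adjusted p = 1.6e-21), and the beta-glucan receptor Clec7a fell (-0.59 ± 0.07). Fc and complement receptors gave 10 higher and 3 lower of 16. The formyl peptide receptors Fpr1 (4.03 ± 0.07) and Fpr2 (4.21 ± 0.08) rose, as did complement C3 (3.10 ± 0.06) and the receptor C5ar1 (1.46 ± 0.06), while the alternative C5a receptor C5ar2 fell (-1.38 ± 0.11).

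Receptors by which macrophages recognise dying cells were mostly lower. Of 18 efferocytosis genes tested, 2 were higher, 13 were lower and 3 were not called. Mertk, a receptor tyrosine kinase that binds dying cells (ENSMUSG00000014361, chromosome 2, 128698956 to 128802894, plus strand), was at 145, 150.3 and 140.1 CPM in the PBS libraries and 30.8, 31.1 and 25.8 CPM in the ADP-Hep libraries (-2.30 ± 0.07, adjusted p = 7.0e-16). Its bridging ligand Gas6 was at 273, 278 and 270.4 CPM in the PBS libraries and 100.2, 111 and 113 CPM in the ADP-Hep libraries (-1.35 ± 0.05, adjusted p = 9.4e-14). Neither gene overlapped between groups. Stab2 (-2.08 ± 0.16), Cd300lf (-1.56 ± 0.09), Cd300a (-1.39 ± 0.05) and the integrin subunit Itgb5 (-0.77 ± 0.05) also fell, whereas Itgav, the usual partner of Itgb5, rose (0.62 ± 0.06). Scavenger receptors split evenly, 5 higher and 5 lower of 12: Marco (1.48 ± 0.05), Msr1 (1.81 ± 0.06) and the oxidised-lipoprotein receptor Olr1 (5.08 ± 0.21) rose and the lysosomal Scarb2 fell (-0.52 ± 0.05).

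**Figure D3:**
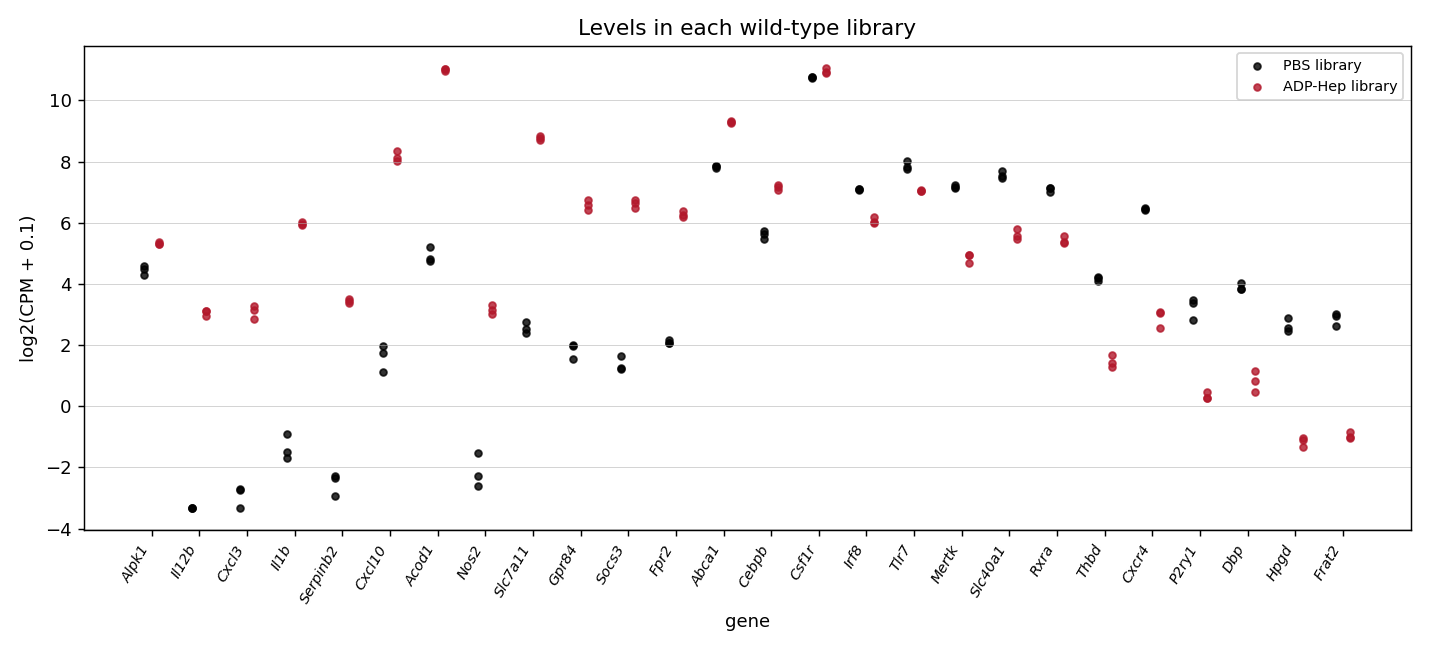
Points give log2(CPM + 0.1) of each gene (x axis) in the 3 PBS libraries (black) and the 3 ADP-Hep libraries (red). No gene shown overlaps between the treatments, and the libraries of a treatment lie close together except for genes with few PBS counts such as Nos2 and Cxcl3.

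Enzymes of itaconate, nitric oxide and arginine metabolism gave 12 higher of 16 tested. Acod1, which makes itaconate (ENSMUSG00000022126, chromosome 14, 103046977 to 103056573, plus strand), was at 36.9, 27.1 and 27.8 CPM in the PBS libraries and 1998, 2096 and 2088 CPM in the ADP-Hep libraries (6.08 ± 0.10, adjusted p = 1.7e-15). Nos2, the inducible nitric oxide synthase, summed to 9 counts with PBS and 711 with ADP-Hep, and stood at 8.84, 9.72 and 8.09 CPM in the latter (6.08 ± 0.24, adjusted p = 6.4e-14). Gch1, which supplies its cofactor (2.34 ± 0.08), the arginine importer Slc7a1 (1.11 ± 0.08) and Odc1, the first enzyme of polyamine synthesis (1.60 ± 0.06), rose. Sat1, which drives polyamine breakdown, fell from 334, 315 and 349.7 to 135, 130.2 and 129.8 CPM across the libraries (-1.34 ± 0.05, adjusted p = 6.9e-14). In the prostaglandin list, Ptgs2, the inducible cyclooxygenase, was at 0.439, 0.32 and 0.319 CPM in the PBS libraries and 15, 14.3 and 18.8 CPM in the ADP-Hep libraries (5.45 ± 0.19, adjusted p = 9.2e-15), and the terminal synthase Ptges (2.35 ± 0.10) and the receptors Ptger4 (1.60 ± 0.06) and Ptgir (1.73 ± 0.09) rose. Hpgd, which inactivates prostaglandins (ENSMUSG00000031613, chromosome 8, 56294585 to 56321043, plus strand), was at 5.8, 5.39 and 7.28 CPM in the PBS libraries and 0.362, 0.299 and 0.388 CPM in the ADP-Hep libraries (-4.17 ± 0.21, adjusted p = 3.2e-12). The constitutive cyclooxygenase Ptgs1 (-0.99 ± 0.06), the prostaglandin D synthase Hpgds (-1.22 ± 0.06) and the thromboxane synthase Tbxas1 (-0.77 ± 0.05) fell. Over the prostaglandin list 8 members were higher and 7 lower of 20.

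Cystine import and antioxidant genes rose, 17 of 22 tested. Slc7a11, the cystine-glutamate exchanger (ENSMUSG00000027737, chromosome 3, 49892526 to 50443614, minus strand), was at 5.7, 5.18 and 6.71 CPM in the PBS libraries and 414, 435 and 455 CPM in the ADP-Hep libraries (6.19 ± 0.08, adjusted p = 2.1e-20). The mitochondrial superoxide dismutase Sod2 (3.27 ± 0.06), thioredoxin reductase Txnrd1 (2.38 ± 0.07), glutathione reductase Gsr (1.31 ± 0.06) and the autophagy receptor Sqstm1 (1.52 ± 0.06) rose, and Gpx4, which reduces lipid peroxides, fell slightly (-0.22 ± 0.05). The NADPH oxidase subunits Cybb (1.27 ± 0.05) and Ncf4 (1.11 ± 0.05) rose, and the subunit Cyba was not called (0.08 ± 0.09). Of 14 iron genes 7 were higher, 6 were lower and 1 was not called. Slc40a1, ferroportin, the only known iron exporter, was at 177, 185 and 206 CPM in the PBS libraries and 47.4, 44.2 and 55 CPM in the ADP-Hep libraries (-1.97 ± 0.08, adjusted p = 1.8e-12). The siderophore-binding Lcn2 (1.25 ± 0.09), the ferroxidase Cp (1.88 ± 0.08) and the importer Slc11a2 (0.75 ± 0.06) rose.

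Of 27 glycolysis and HIF-1 genes 15 were higher, 5 were lower and 7 were not called. Among the increases were the glucose transporters Slc2a1, at 22.1, 24 and 22.1 CPM in the PBS libraries and 80.0, 93.1 and 103 CPM in the ADP-Hep libraries (2.01 ± 0.08, adjusted p = 4.0e-12), and Slc2a6 (2.65 ± 0.08), and Hif1a, at 91.9, 93.2 and 106 CPM in the PBS libraries and 273, 272 and 258 CPM in the ADP-Hep libraries (1.46 ± 0.06, adjusted p = 8.9e-14). The glycolytic enzyme Gapdh was not called (0.05 ± 0.08). TCA cycle enzymes gave 7 higher and 9 lower of 24, none of them by 2-fold. Idh1, the cytosolic isocitrate dehydrogenase, fell (-0.93 ± 0.05, adjusted p = 1.7e-11), the succinate dehydrogenase subunit Sdha fell slightly (-0.26 ± 0.05) and Dld, shared by the 2-oxoacid dehydrogenases, rose (0.56 ± 0.06). Of 30 nuclear-encoded respiratory chain genes 22 were not called and 8 were higher, for example Cycs (1.17 ± 0.08). The 7 mitochondrially encoded mRNAs tested were all higher, between 0.25 and 0.46, for example mt-Co1 (0.35 ± 0.06) and mt-Nd1 (0.45 ± 0.05); the other 6 were listed at 0 counts in every wild-type library.

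Genes of cholesterol handling showed a split within one pathway. Liver X receptors pair with RXR and switch on genes that export cholesterol. Nr1h3, encoding LXR-alpha, was at 5.02, 5.39 and 6.55 CPM in the PBS libraries and 33.8, 35.9 and 34.7 CPM in the ADP-Hep libraries (2.60 ± 0.09, adjusted p = 6.9e-15), whereas its partner Rxra was at 139, 141 and 129 CPM in the PBS libraries and 41.3, 40.5 and 47.6 CPM in the ADP-Hep libraries (-1.67 ± 0.06, adjusted p = 4.5e-14). Neither overlapped between groups, and the directions were opposite. The exporter Abca1 rose (1.47 ± 0.05, adjusted p = 7.9e-15), and Ch25h, which makes 25-hydroxycholesterol, rose from 12 to 297 counts over the group (4.42 ± 0.30, adjusted p = 1.7e-10). Apoe (-1.0 ± 0.05, adjusted p = 5.1e-12), the esterifying enzyme Soat1 (-1.08 ± 0.05) and the lipid droplet gene Plin2 (-1.09 ± 0.05) fell. Abcg1, the other main exporter, was also lower (-1.31 ± 0.08); it was chosen after its values were seen. In total 5 of 16 members were higher and 9 lower. Cholesterol and fatty acid synthesis gave 13 higher and 5 lower of 28, with the feedback gene Insig1 among the lower (-0.43 ± 0.05).

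Lineage factors also diverged, 8 higher and 11 lower of 21. Cebpb, a factor of inflammatory activation, was at 43.9, 50.1 and 52.6 CPM in the PBS libraries and 136, 151 and 144 CPM in the ADP-Hep libraries (1.55 ± 0.07, adjusted p = 2.8e-13), and Cebpd (2.45 ± 0.07), Spi1 (1.05 ± 0.06) and Tfec (1.17 ± 0.07) rose. Their relative Cebpa was at 115, 121 and 109.6 CPM in the PBS libraries and 31, 31.1 and 41.7 CPM in the ADP-Hep libraries, lower without overlap (-1.76 ± 0.10, adjusted p = 1.2e-08). Pparg, a factor of resident macrophages, fell (-1.15 ± 0.09); both of these lower genes were chosen after their values were seen. Of 12 AP-1 genes 8 were higher, none was lower and 4 were not called. Examples were Fos (2.81 ± 0.07), Junb (1.94 ± 0.06) and Batf (1.2 ± 0.11), all higher at 4 h, while Jun (-0.02 ± 0.06) and Atf3 (-0.05 ± 0.06) were not called. Among EGR, NR4A, KLF and other early factors 9 were higher and 6 lower of 21. The growth regulator Myc (1.99 ± 0.10) and Klf7 (2.21 ± 0.08) rose and Klf9 (-1.93 ± 0.13) fell.

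The circadian clock list had the lowest median of the pathway lists, -1.07. Of 17 members 2 were higher, 10 were lower and 5 were not called. Dbp, a clock output factor (ENSMUSG00000059824, chromosome 7, 45705088 to 45710203, plus strand), was at 14, 16.4 and 14 CPM in the PBS libraries and 1.66, 1.29 and 2.14 CPM in the ADP-Hep libraries (-3.18 ± 0.14, adjusted p = 2.2e-13). The nuclear receptors Nr1d2 (-1.32 ± 0.08) and Rora (-1.97 ± 0.07), the output factor Tef (-1.07 ± 0.06) and the period gene Per3 (-1.83 ± 0.13) fell as well. Cry1, a repressor of the clock, rose (1.41 ± 0.10, adjusted p = 6.9e-10), and the core activator Clock rose slightly (0.35 ± 0.07) while its partner Arntl was not called (0.19 ± 0.10). Both groups were treated for 4 h and the labels give no time of day of collection, so a level and a phase of the clock cannot be told apart.

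**Figure D4:**
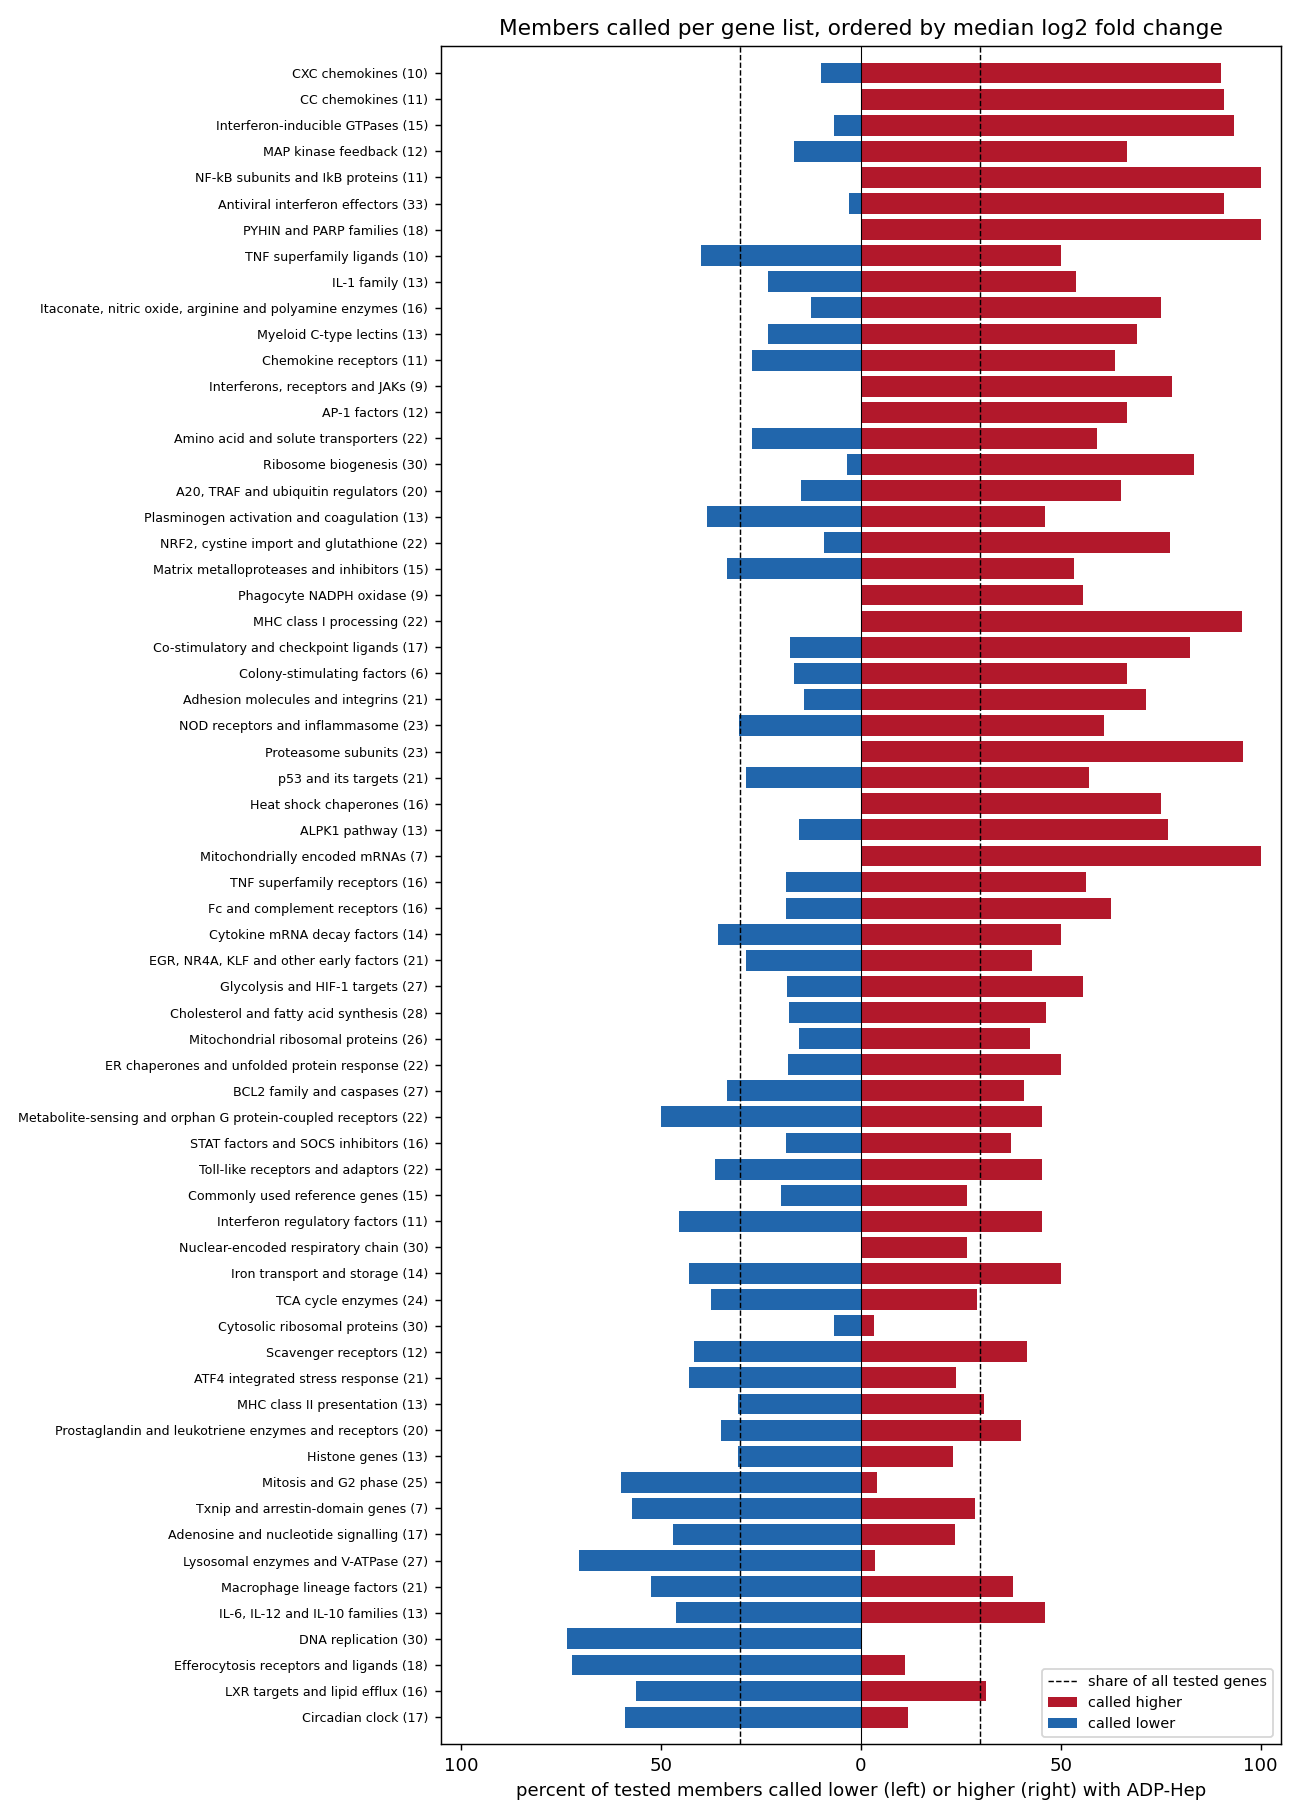
Each row is 1 gene list with the number of tested members in brackets; the bar to the right gives the percent called higher and the bar to the left the percent called lower after ADP-Hep, and dashed lines mark the 29.9% and 30.1% of all tested genes. Rows run from CXC chemokines (median 5.64) at the top to the circadian clock (-1.07) at the bottom.

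Most genes of DNA replication fell and most genes of ribosome assembly rose. Of 30 DNA replication genes none was higher, 22 were lower and 8 were not called, with a median of -0.43. Cdt1, which loads the replicative helicase, was at 28.9, 29.9 and 28 CPM in the PBS libraries and 7.69, 7.46 and 8.03 CPM in the ADP-Hep libraries (-1.91 ± 0.08, adjusted p = 5.5e-14), and E2f2 was at 34, 33.8 and 31.6 CPM in the PBS libraries and 12, 12.4 and 14.4 CPM in the ADP-Hep libraries (-1.38 ± 0.08, adjusted p = 8.1e-12). Mitotic genes gave 1 higher and 15 lower of 25, all by less than 2-fold, with the proliferation marker Mki67 not called (-0.14 ± 0.07) except without PBS replicate 3 or ADP-Hep replicate 1 (adjusted p = 0.0023 and 0.0422 in edgeR). In a bulk sample, fewer cells of a type and less RNA per cell cannot be told apart. Ribosome biogenesis gave 25 higher and 1 lower of 30, with a median of 0.65, including Nop58 (1.27 ± 0.07), Rrs1 (1.34 ± 0.08) and Ddx21 (0.97 ± 0.05). The ribosomal protein genes themselves hardly moved: 27 of 30 were not called. Of 21 p53 genes 12 were higher and 6 lower. Cdkn1a, which blocks cyclin-dependent kinases (0.99 ± 0.06), and the BH3 gene Pmaip1 (1.68 ± 0.10) rose, and the BH3 gene Bbc3 (-1.19 ± 0.10), the sestrin Sesn1 (-0.92 ± 0.05) and Trp53inp1 (-1.41 ± 0.07) fell. Of 27 BCL2 family and caspase genes 11 were higher and 9 lower. They included Bcl2a1d (3.85 ± 0.14) and the caspase-8 inhibitor Cflar (1.62 ± 0.05), both higher, and the BH3 gene Bmf was lower (-1.79 ± 0.08); the Bcl2a1 genes are near-identical copies.

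Most proteasome and heat shock genes were higher and most lysosomal genes lower. All but 1 of 23 proteasome subunits were higher, with a median of 0.40; the largest increase was in Psme3 (0.65 ± 0.05), and Psmd2 was not called (0.10 ± 0.06). Heat shock chaperones gave 12 higher and 0 lower of 16, for example Hsp90aa1 (0.72 ± 0.06) and Hspa8 (0.41 ± 0.06). Chaperones of the endoplasmic reticulum changed by less than 2-fold, 11 higher and 4 lower of 22. Of 27 lysosomal genes 1 was higher, 19 were lower and 7 were not called, none changing by 2-fold. Atp6v1a, the catalytic subunit of the proton pump, was at 896, 924 and 998 CPM in the PBS libraries and 588, 584 and 612 CPM in the ADP-Hep libraries (-0.66 ± 0.05, adjusted p = 3.2e-09), and Npc1, which exports cholesterol from lysosomes, fell by a similar amount (-0.63 ± 0.05).

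MHC class I genes gave 21 higher and 0 lower of 22. The peptide transporter Tap1 (1.16 ± 0.07), the proteasome activator Psme2 (1.08 ± 0.05) and H2-K1 (0.75 ± 0.05) rose, and the non-classical H2-M2 was at 0.0975, 0.16 and 0.287 CPM in the PBS libraries and 16.2, 16.1 and 17.6 CPM in the ADP-Hep libraries (6.35 ± 0.18, adjusted p = 7.3e-16). Co-stimulatory ligands gave 14 higher and 3 lower of 17. Icosl (2.96 ± 0.08) and Cd274, encoding PD-L1 (1.73 ± 0.06), rose and the inhibitory receptor Cd200r1 fell (-1.26 ± 0.09). Adhesion molecules gave 15 higher and 3 lower of 21, and matrix metalloproteases and inhibitors 8 and 5 of 15. The adhesion molecules Icam1 (3.21 ± 0.06), Vcam1 (4.28 ± 0.20) and Itga5 (2.23 ± 0.06) rose and Itga6 fell (-1.02 ± 0.05). Matrix proteases Mmp14 (2.02 ± 0.06) and Mmp9 (2.65 ± 0.09) rose and the inhibitor Timp2 fell (-0.56 ± 0.05). In the plasminogen and coagulation list the urokinase inhibitor Serpinb2 was at 0.0975, 0.107 and 0.0319 CPM in the PBS libraries and 11.3, 10.3 and 10.7 CPM in the ADP-Hep libraries (7.15 ± 0.23, adjusted p = 4.1e-15) while urokinase itself, Plau, fell (-1.38 ± 0.07). Thbd, thrombomodulin, an anticoagulant receptor, was at 18, 18.5 and 17.1 CPM in the PBS libraries and 3.08, 2.32 and 2.59 CPM in the ADP-Hep libraries (-2.73 ± 0.11, adjusted p = 6.5e-14), whereas its partner receptor Procr rose (2.13 ± 0.11).

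Some receptors for nucleotides and metabolites rose and others fell. The adenosine receptor Adora2a (ENSMUSG00000020178, chromosome 10, 75316877 to 75334784, plus strand) was at 0.195, 0.213 and 0.383 CPM in the PBS libraries and 14.2, 15.4 and 15.9 CPM in the ADP-Hep libraries (5.71 ± 0.17, adjusted p = 1.5e-15), and Adora2b rose too (2.46 ± 0.15). The ADP receptor P2ry1 was at 10.2, 7.04 and 11.1 CPM in the PBS libraries and 1.12, 1.29 and 1.1 CPM in the ADP-Hep libraries (-3.02 ± 0.18, adjusted p = 3.9e-10), and the ATP channel P2rx7 (-0.99 ± 0.05), P2ry6 (-0.67 ± 0.06) and Entpd1, which degrades extracellular ATP (-1.26 ± 0.06), fell. Nt5e, which makes adenosine, rose (1.65 ± 0.18). Over the list 4 were higher and 8 lower of 17. Of 22 metabolite-sensing and orphan receptors 10 were higher and 11 lower. Gpr84, a receptor for medium-chain fatty acids, was at 3.8, 3.9 and 2.81 CPM in the PBS libraries and 85.6, 96.4 and 107 CPM in the ADP-Hep libraries (4.81 ± 0.11, adjusted p = 8.1e-15), and Hcar2, a receptor for beta-hydroxybutyrate, at 1.17, 1.12 and 0.83 CPM in the PBS libraries and 15.3, 17.6 and 16.8 CPM in the ADP-Hep libraries (4.03 ± 0.14, adjusted p = 6.8e-15). The orphan receptor Gpr146 fell (-1.99 ± 0.07). Solute carriers gave 13 higher and 6 lower of 22, with Slc46a3 among the lower (-2.09 ± 0.07).

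**Figure D5:**
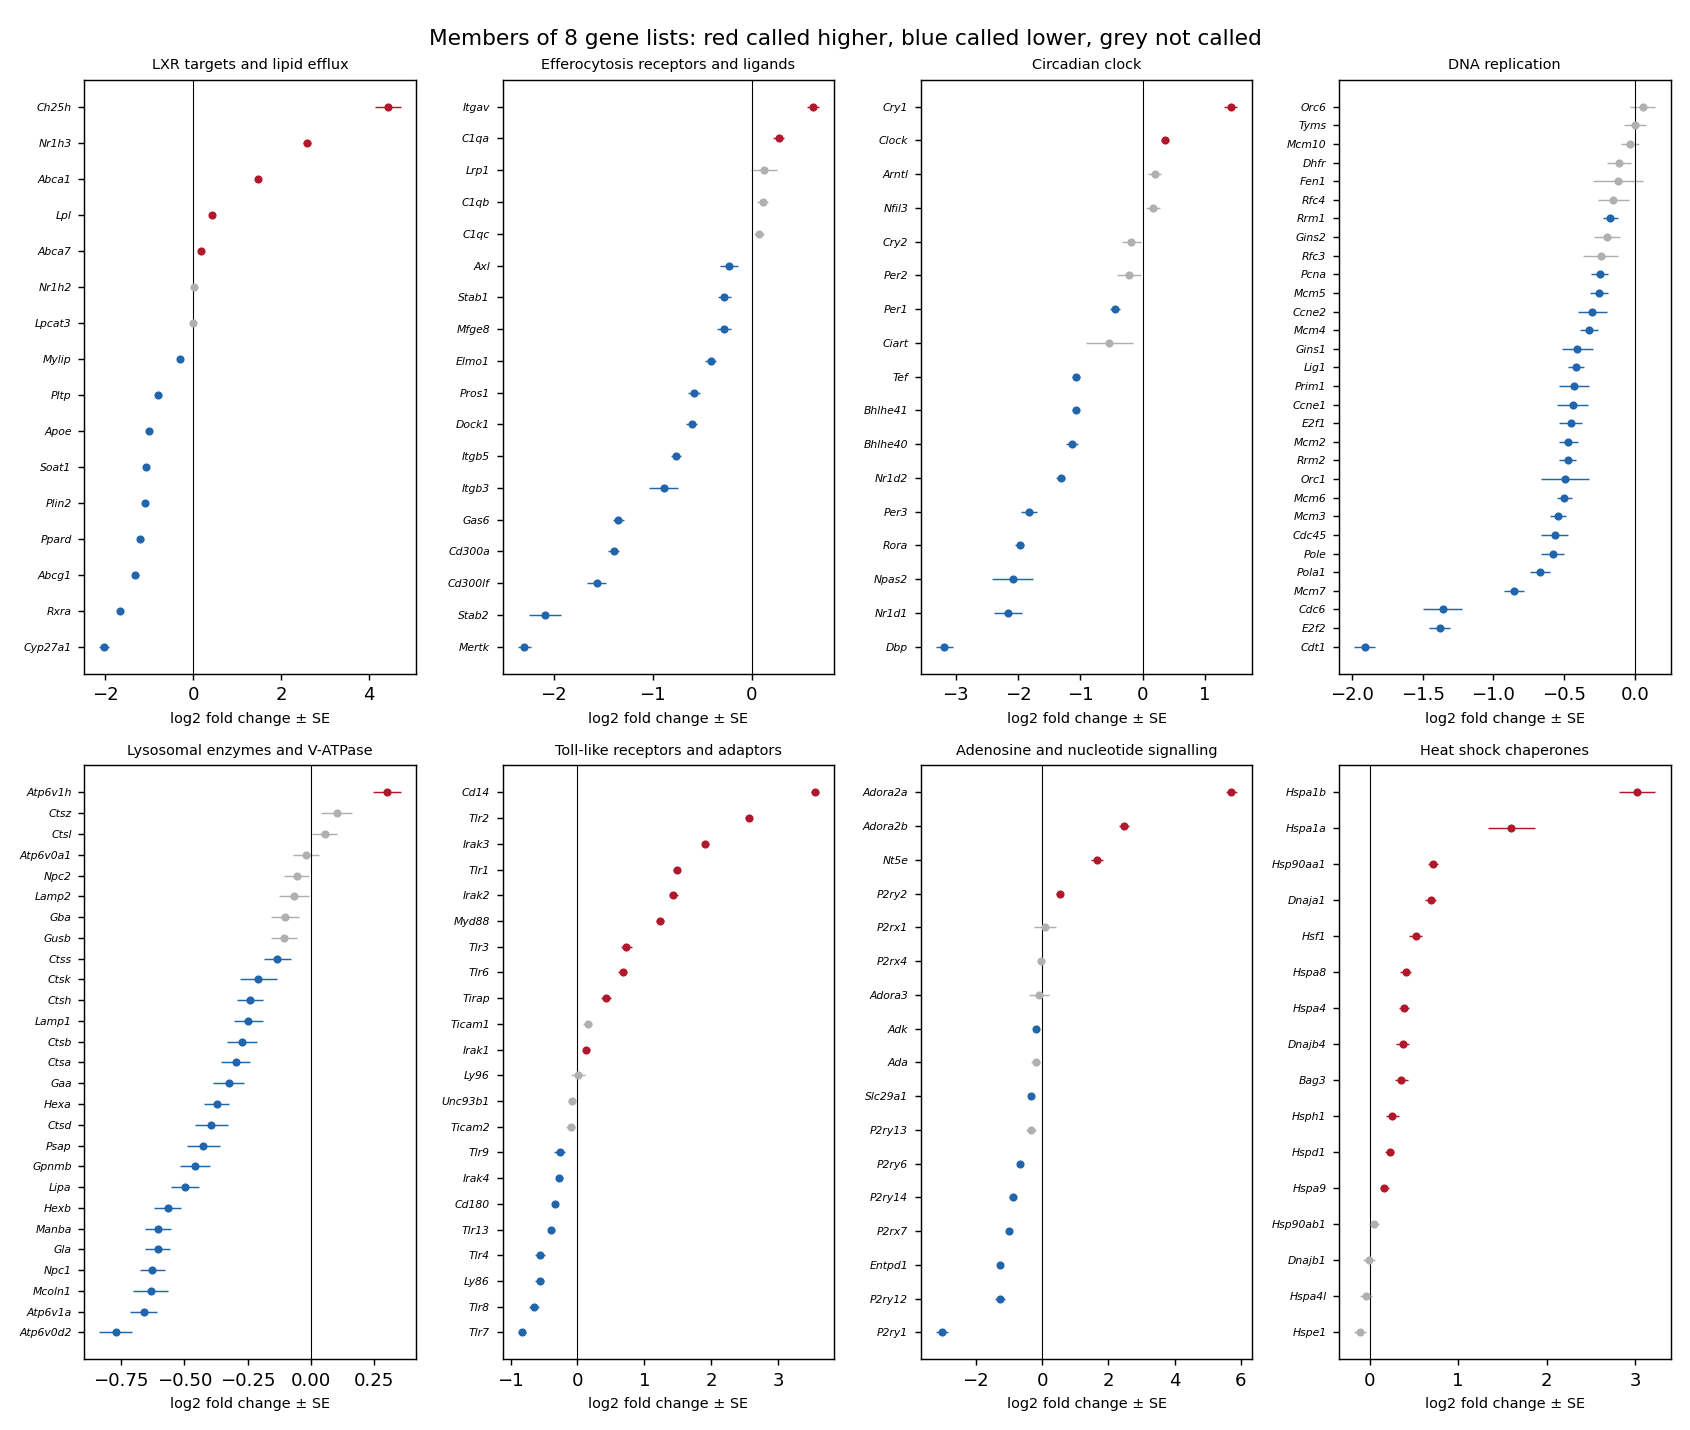
Each panel is 1 gene list; points give a member's log2 fold change of ADP-Hep over PBS (x axis) and bars its SE, red for called higher, blue for called lower and grey for not called. Rxra and Nr1h3 lie on opposite sides in the lipid panel, Mertk (-2.30) is the lowest efferocytosis gene and Dbp (-3.18) the lowest clock gene.

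Several of the 15 largest decreases, taken where the groups did not overlap and the higher one reached 5 CPM, belonged to no pathway list. Frat2, which encodes a GSK3-binding protein (ENSMUSG00000047604, chromosome 19, 41845972 to 41848132, minus strand), was at 7.65, 7.95 and 6.07 CPM in the PBS libraries and 0.392, 0.398 and 0.453 CPM in the ADP-Hep libraries (-4.12 ± 0.20, adjusted p = 1.1e-12). Rnf144b, a ubiquitin ligase (ENSMUSG00000038068, chromosome 13, 47122656 to 47247991, plus strand), was at 41.7, 42.3 and 42.8 CPM in the PBS libraries and 3.47, 3.95 and 2.85 CPM in the ADP-Hep libraries (-3.59 ± 0.09, adjusted p = 8.2e-17). Rasgrp3, an activator of Ras-family proteins (ENSMUSG00000071042, chromosome 17, 75435896 to 75529054, plus strand), was at 24.2, 23.2 and 24 CPM in the PBS libraries and 3.2, 1.89 and 2.65 CPM in the ADP-Hep libraries (-3.20 ± 0.12, adjusted p = 6.8e-14). That each of these genes was lower in every ADP-Hep library than in any PBS library follows from the rule that chose them. Etl4 (-3.67 ± 0.14), Fam214a (-3.32 ± 0.09), the peroxisomal transporter Abcd2 (-3.08 ± 0.10), the N-acetylaspartate synthase Nat8l (-3.02 ± 0.11), the atrophy-linked ubiquitin ligase subunit Fbxo32 (-3.01 ± 0.16), Slc26a11 (-2.99 ± 0.09), C77080 (-2.88 ± 0.06) and the transcription factor Sox4 (-3.51 ± 0.13) completed the set, with Hpgd, Cxcr4, Dbp and P2ry1 given above. The 15 largest increases, all given above, ran from Il12b and Cxcl3 to Cxcl2 and Ptgs2.

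Genes often used as references were not all steady, with 4 higher and 3 lower of 15 and 0 by 2-fold. Of all tested genes 29.9% were higher and 30.1% lower, so these counts do not exceed the background. Actb (0.36 ± 0.06) and Ywhaz (0.48 ± 0.05) rose, whereas Gapdh (0.05 ± 0.08), Rplp0 (-0.01 ± 0.06) and Tubb5 (-0.07 ± 0.05) were not called.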

How the data were processed

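RNA from the 6 wild-type libraries was prepared with a stranded mRNA kit, per the labels' protocols. The authors deposited whole read counts per gene, 1 column per library. STAR, RSEM, featureCounts, DESeq2, Trim Galore and FastQC, with builds mm10 and hg38, are named in the submitters' processing notes. Their versions, the annotation used and whether counting used strand are, in the sources used here, not given. Thus reads of overlapping or antisense genes cannot be told apart. A row with no gene ID and a row whose ID is not a mouse ID, with 0 counts in these libraries, were left out, and 27 symbols that had turned into dates were restored from the gene ID.

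The main test was edgeR 4.0.16 (R 4.3.3): TMM scaling, filterByExpr, robust quasi-likelihood fit of treatment over the 6 libraries, Benjamini-Hochberg adjustment over 12949 genes. Alternatives were other scalings and filters, DESeq2 1.42.0, limma 3.58.1 (voom), glmTreat and each library left out. The scripts were tested on simulated data. The labels do not say whether replicate numbers pair the libraries. Correlations of deviations from the group means were 0.1750, -0.1364 and -0.0495 for same-numbered libraries. They were 0.1933 for PBS replicate 3 with ADP-Hep replicate 2 and 0.1487 for PBS replicate 2 with ADP-Hep replicate 3, and negative for all other combinations. With so few libraries these values cannot settle whether any were paired. Coordinates are from GENCODE M21 (mm10), in which 12763 tested IDs were found. Libraries of a group differed by more than sampling noise.

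Members, gene lists and tests were chosen with earlier results of these data known. Genes named are Alpk1, the 15 largest called changes each way (no overlap, 5 CPM or more in the higher of the groups), and per list the 6 called members of smallest p, up to 4 against the majority and up to 2 not called with the highest CPM, with all tested ALPK1 pathway, NF-kB and IRF members. Promoters are the first entry per symbol in the RefSeq table. Some genes that the naming rule gives are not reported here.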

Additional observations from a re-analysis of the deposited data

How the results depend on the processing

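The counts of genes higher and lower after ADP-Hep (3874 and 3896) kept within 1.5 times under every alternative scaling, filter and tool run except glmTreat. With DESeq2's Wald test they were 3566 and 3329, with limma-voom 3871 and 3894, with library totals 3544 and 3436, and with no filter beyond 1 count 4079 and 3821 of 27374 genes. Tested against a 1.5-fold change (glmTreat), 1139 were higher and 1079 lower, a stricter question by construction, since 4307 called genes changed by less than that. Leaving out 1 library gave 3454 to 3909 higher and 3443 to 4007 lower, and by at least 2-fold 908 to 1119 higher and 840 to 921 lower. With the replicate number as a block, 3658 were higher and 3691 lower, and the block changed the call of 12 of the 581 genes of the naming rule. The labels do not say whether these numbers pair the libraries. No gene of that rule changed direction under an alternative that tested it, where the gene was called in the main fit or in that alternative. Signs of genes called in neither were not compared. Among list medians further from 0 than their spread between libraries, 1 changed sign, that of the prostaglandin and leukotriene list. It was -0.14 over all libraries and, with 1 library left out, ran from -0.18 to 0.0697, the last without PBS replicate 1. The cause was not tested. Some medians nearer 0 also changed sign. That of the metabolite-sensing and orphan receptors, for example, was 0.09 over all libraries and -0.12 without ADP-Hep replicate 2. Of the list counts and medians, 72 moved beyond their limits under alternatives other than glmTreat and library totals. Depth limits genes near 0 counts in PBS, such as Cxcl3, whose ratios are wide, and genes too low to test, such as Ifnb1.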
